A study of Mus musculus with 4 samples.

Results

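The genes described here are 10 genes of lipoprotein remodelling, namely endothelial lipase and its companions at the vessel wall: Lipg, Lpl, Gpihbp1, Pltp, Lipc, Lcat, Lmf1, Scarb1, Angptl4 and Vldlr. They were taken as every probe set (a group of probes on the array that reads 1 transcript) whose platform annotation names 1 of these genes alone. This gave 22 of 45101 probe sets and 9 of 18193 named genes. No probe set is named for Lipc, the hepatic lipase, so it was not analysed here. The set was chosen by the measured difference between DIO and control, which was already known for Lipg and Pltp, joined by genes that work with them. The differences between groups are therefore given as a description, with no test, and support nothing by themselves.

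Expression was measured on Affymetrix mouse arrays in mouse endothelial cells made from induced pluripotent stem cells (iPSCs), that is, adult cells returned to a state like that of the early embryo. The control group was 2 arrays of cells from healthy mice, and the DIO group was 2 arrays of cells from mice with diet-induced obesity, 1 array per mouse, called control 1, control 2, DIO 1 and DIO 2. All the mice are labelled as 24 weeks old, and all the cells grew in a medium for endothelial cells and were harvested with trypsin for isolation of total RNA. The sources used here do not give strain, sex or diet, or whether a mouse gave 1 or several iPSC lines, so the spread between arrays may be partly technical. The obese animal is the donor, and every array measures cells that were reprogrammed, differentiated and cultured since.

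In the circulation, triglyceride-rich lipoproteins are unloaded at the surface of capillary endothelium. Lipoprotein lipase (Lpl) does most of this work, held there by the endothelial anchor Gpihbp1, folded beforehand in the endoplasmic reticulum by Lmf1 and inactivated by Angptl4. Endothelial lipase (Lipg) is a relative of Lpl and of hepatic lipase that cleaves mainly phospholipids of high-density lipoprotein (HDL). Pltp moves phospholipids between lipoproteins, Lcat esterifies cholesterol on HDL, Scarb1 is the receptor that takes cholesteryl ester from HDL, and Vldlr is a receptor for remnants of triglyceride-rich particles. In bulk RNA such as this, fewer cells that express a gene and less of its RNA per cell cannot be told apart.

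The labels are at odds on the cells: the titles name endothelial cells while the cell type entry reads iPSC. Of 20 endothelial marker genes, 5 had a mean above 7.09, the median of all gene means. The same held for 14 of 14 measured pluripotency, 15 of 18 epidermal and 9 of 10 trophoblast (placental) markers. Levels of different probe sets can be compared only roughly. Among the bright endothelial markers, Cdh5 lay between 8.37 and 9.34, Esam between 8.66 and 9.11 and Egfl7 between 8.27 and 8.98. Tie1 and Emcn, among the dimmest, lay between 3.44 and 3.88 on all 4 arrays, near the lower end of a table that starts at 2.59. The 20 endothelial markers averaged 5.92 and 6.13 in control cells and 5.89 and 5.80 in DIO. These means did not overlap, but control 1 at 5.92 and DIO 1 at 5.89 were nearly equal. The DIO mean was higher for 9 of them and lower for 11, with a median difference of −0.07. Single markers did not overlap between the groups for 8 of 20, 3 above and 5 below, beside 38.4% of all genes. Control 2 stood apart from the other arrays: its 18 measured epidermal markers averaged 11.70 on the log2 scale, against 6.83 in control 1, 7.83 in DIO 1 and 8.67 in DIO 2, and 18 of 18 were highest there. 18S ribosomal RNA, measured by the array's own control probe sets, also differed, at 12.60 and 12.65 in control cells and 12.30 and 11.97 in DIO. The part of these differences in the values below was not tested, but values without control 2 are given for each member whose difference they move by over 1.5 times or turn, and for the wider pathway lists and their named genes whose direction they turn.

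The promoters of Pltp, Lcat and Vldlr are printed here. On their brightest probe sets, Pltp and Lcat were higher in DIO with no overlap, and Vldlr was lower with no overlap. Other probe sets of Pltp and Vldlr overlapped. These are the members without overlap on the brightest probe set for which a sequence was to hand. They come from RefSeq on build GRCm38.p6, run 5′ to 3′ on the gene's strand and cover 250 bases before to 50 bases after an annotated start. Capitals mark 4 short motifs on either strand: the TATA box TATAAA, the GC box GGGCGG, the CCAAT box CCAAT and the nuclear receptor half-site AGGTCA, none of which overlap here.
Pltp, chr2:164857659-164857958, minus strand: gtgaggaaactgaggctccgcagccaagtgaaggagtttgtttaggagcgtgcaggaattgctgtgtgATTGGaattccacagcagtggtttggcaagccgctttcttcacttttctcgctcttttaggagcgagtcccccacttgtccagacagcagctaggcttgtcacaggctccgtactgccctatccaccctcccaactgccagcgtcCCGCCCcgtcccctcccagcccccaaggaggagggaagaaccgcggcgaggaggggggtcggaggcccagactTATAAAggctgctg
Lcat, chr8:105943353-105943652, minus strand: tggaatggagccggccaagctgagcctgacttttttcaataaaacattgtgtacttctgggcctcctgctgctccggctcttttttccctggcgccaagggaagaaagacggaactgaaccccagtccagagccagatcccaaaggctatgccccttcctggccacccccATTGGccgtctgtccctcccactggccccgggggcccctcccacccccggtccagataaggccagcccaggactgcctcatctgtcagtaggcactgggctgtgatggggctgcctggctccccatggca
Vldlr, first start, chr19:27216234-27216533, plus strand: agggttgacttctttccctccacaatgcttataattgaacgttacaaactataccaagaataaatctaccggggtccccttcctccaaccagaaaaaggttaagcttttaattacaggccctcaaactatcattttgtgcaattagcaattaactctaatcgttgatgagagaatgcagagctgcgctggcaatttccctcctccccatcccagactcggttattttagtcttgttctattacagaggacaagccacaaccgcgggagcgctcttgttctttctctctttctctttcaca
Vldlr, second start, chr19:27216770-27217069, plus strand: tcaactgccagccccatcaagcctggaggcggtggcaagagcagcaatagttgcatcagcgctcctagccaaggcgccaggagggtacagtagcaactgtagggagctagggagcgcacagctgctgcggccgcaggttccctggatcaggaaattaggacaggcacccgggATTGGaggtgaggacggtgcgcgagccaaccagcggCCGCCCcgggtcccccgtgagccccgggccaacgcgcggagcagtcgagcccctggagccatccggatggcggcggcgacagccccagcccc
The Pltp window held 1 TATA box beginning at position 37, 1 GC box at position −37 and 1 CCAAT box at position −182, counted from the start as position 1 with no position 0. The Lcat window held 1 CCAAT box, at position −80, and none of the other motifs. The second Vldlr window held 1 GC box and 1 CCAAT box, at positions −42 and −78, while these letters do not occur in the first. Over 32851 windows of 300 bases, a TATA box occurred in 13.6%, a GC box in 35.7%, a CCAAT box in 37.4% and the half-site in 16.3%. The window of Lmf1, whose groups overlapped, held 2 GC boxes. Entries were found for 5 of the 10 genes, Lipc among them. A match is a run of letters, not a measured site.

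Levels are the log2 values deposited by the authors, so a difference of 1 is a factor of 2 in signal. Each gene is first described by its brightest probe set, followed by the others. Differences are the DIO mean minus the control mean, with the standard error (SE) and 95% confidence interval from limma fitted over all 18193 genes, or over all probe sets where a probe set is not the brightest of its gene. With 2 arrays per group, the distance from the difference to either end of this interval had a median of 0.456 over all genes.

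Among the lipases, Lipg was lower in DIO on every probe set. Its brightest probe set, 1421262_at, was at 10.76 in control 1, 10.76 in control 2, 9.26 in DIO 1 and 9.52 in DIO 2. The 2 controls were nearly equal, both DIO arrays lay below them, and the smallest distance between a DIO array and a control was −1.23. The difference was −1.37 ± 0.15 (SE, n = 2 per group; interval −1.78 to −0.96), a control signal 2.58 times that of DIO. The second bright probe set, 1450188_s_at, was at 10.24 and 10.28 in control cells and 8.94 and 8.93 in DIO cells, a difference of −1.32 ± 0.11. The dim probe set 1421261_at was at 6.18 and 6.16 in control cells and 5.72 and 5.77 in DIO. It differed in the same direction by a smaller −0.42 ± 0.11, again without overlap. Leaving out any 1 array kept the difference between −1.50 and −1.24, so it was as large without control 2 (−1.37). Of all genes, 0.451% had a difference of either sign at least as large.

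Lpl was higher in DIO on average, but its arrays were widely spread. Its probe set 1415904_at was at 10.48 in control 1 and 9.80 in control 2, and at 10.58 in DIO 1 and 11.44 in DIO 2. DIO 1 thus lay only 0.10 above control 1, while DIO 2 lay 1.65 above control 2. The controls were 0.69 apart and the DIO arrays 0.86, about as far as the difference of 0.87 ± 0.40, whose interval of −0.22 to 1.97 includes 0. The second probe set, 1431056_a_at, had the same order, at 8.68 and 7.86 in control cells and 8.68 and 9.58 in DIO, with DIO 1 and control 1 equal to the second decimal and a difference of 0.86 ± 0.43. Leaving out DIO 2 brought the Lpl difference to 0.44 and leaving out control 2 to 0.53, while it was 1.22 without control 1 and 1.31 without DIO 1. Of all genes, 2.41% had a difference at least as large.

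The genes that serve Lpl showed small differences. Gpihbp1, the anchor of Lpl on capillary endothelium, was dim, at 4.88 and 4.75 in control cells and 5.001 and 4.97 in DIO on its single probe set. Both DIO arrays were higher, by 0.17 ± 0.13 on average, with an interval of −0.18 to 0.52. No array reached 5.63, the median of all values in the table, and without control 2 the difference was 0.11. Lmf1, the endoplasmic reticulum factor needed to fold Lpl, Lipg and Lipc, was at 7.79 and 7.20 in control cells and 7.71 and 7.40 in DIO. Its groups overlapped, and its difference of 0.06 ± 0.26 turned to −0.24 without control 2 and −0.09 without DIO 1. A second, dim Lmf1 probe set, 1445833_at, lay between 4.16 and 4.48 and overlapped too.

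Angptl4, the secreted inhibitor of Lpl that also acts on the other lipases, was at 7.11 and 6.46 in control cells and 7.06 and 6.57 in DIO. Both groups held 1 higher and 1 lower array, the higher being number 1 each time. The difference was 0.03 ± 0.31 (interval −0.81 to 0.87), and it turned to −0.30 without control 2 and −0.21 without DIO 1. Its second probe set, 1453410_at, lay between 2.98 and 3.25, near the bottom of the table, with a difference of −0.16 ± 0.12.

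**Figure D1:**
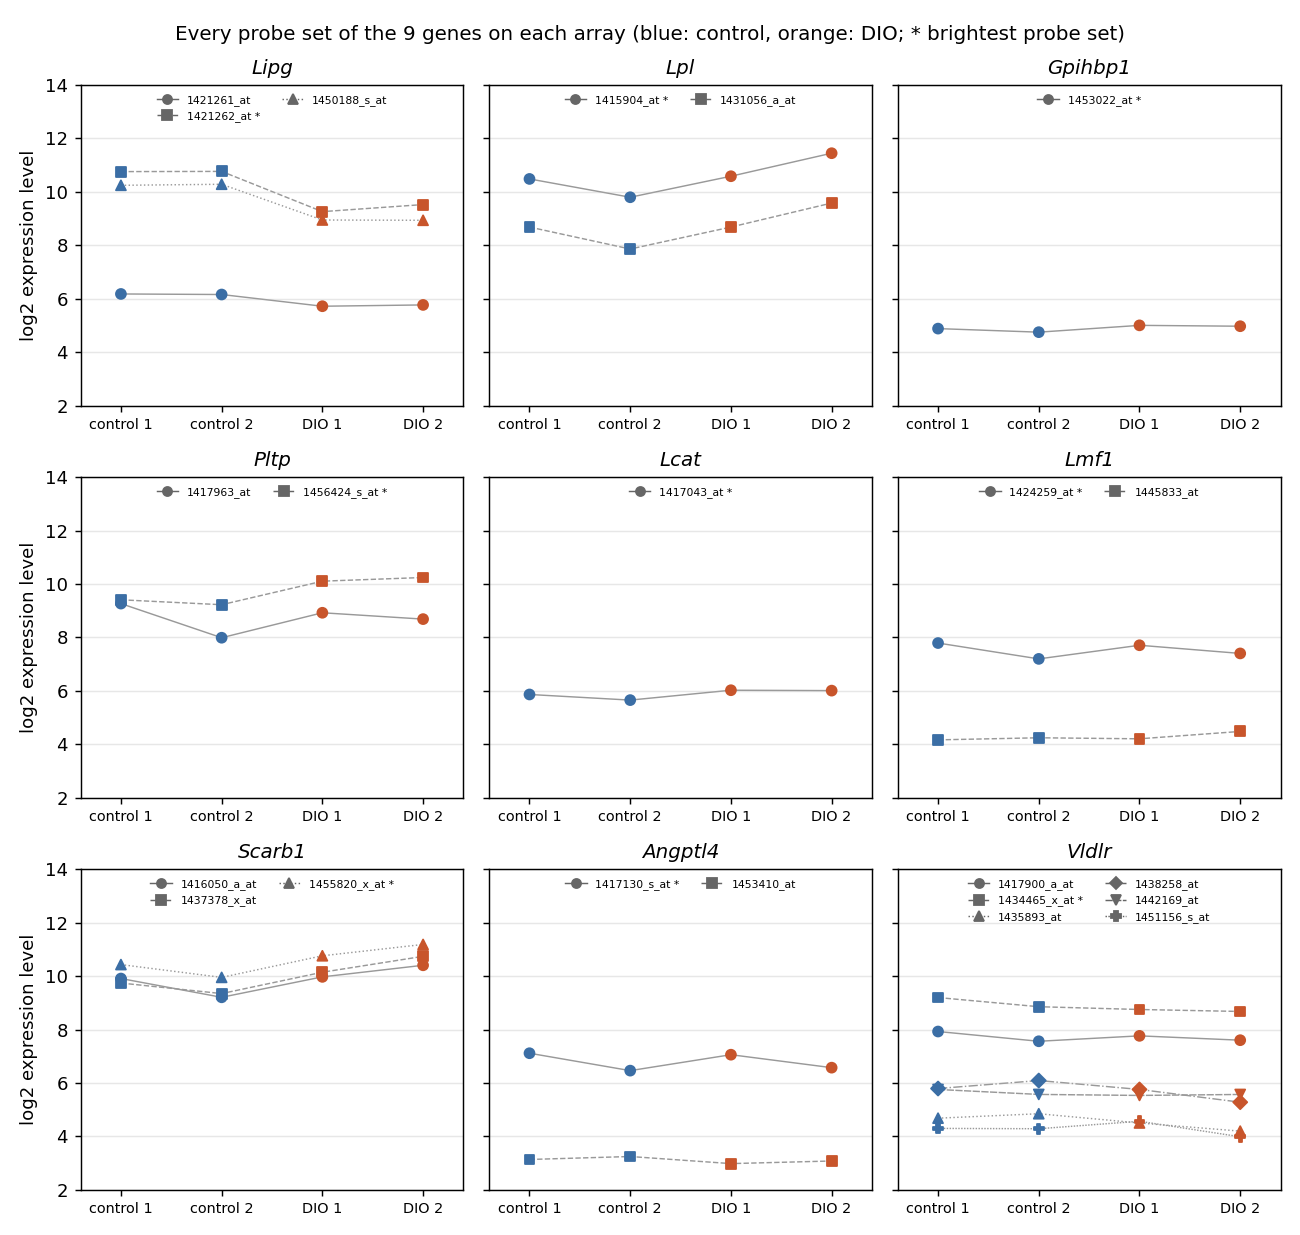
Deposited log2 expression level (vertical axis) of each of the 22 probe sets on each of the 4 arrays (horizontal axis), with 1 panel per gene, blue points for control and orange for DIO, and a line joining the points of a probe set. The 3 Lipg probe sets are lower on both DIO arrays than on both controls, Scarb1 and Lpl have their lowest point at control 2 and their highest at DIO 2, and the 2 Pltp probe sets part at control 2.

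Of the genes that remodel HDL outside the cell, Pltp gave different answers on its probe sets. On the brighter one, 1456424_s_at, it was at 9.41 in control 1, 9.22 in control 2, 10.10 in DIO 1 and 10.24 in DIO 2. Both DIO arrays lay above both controls by at least 0.70, and the difference was 0.86 ± 0.14 (interval 0.47 to 1.25), a signal 1.81 times that of the controls. On 1417963_at it was at 9.27 and 7.99 in control cells and 8.92 and 8.68 in DIO. There control 1 was the highest array and control 2 the lowest, the groups overlapped, and the difference was 0.18 ± 0.45. The controls differed by 1.28 on that probe set and by 0.18 on the brighter one. The mean over both probe sets differed by 0.52 ± 0.28, so the Pltp difference rests on 1 of its 2 probe sets. Of all genes, 2.58% differed at least as much as the brighter probe set. In Affymetrix names the suffix _s_at marks a probe set that matches more than 1 transcript. This holds for the brighter Pltp probe set, 1450188_s_at of Lipg, the brighter Angptl4 probe set 1417130_s_at and 1451156_s_at of Vldlr. On the brighter probe set, leaving out any 1 array kept the difference between 0.77 and 0.95.

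Lcat, the enzyme that esterifies cholesterol on HDL, was at 5.86 and 5.65 in control cells and 6.02 and 6.01 in DIO on its single probe set. Both DIO arrays were higher and nearly equal, by 0.26 ± 0.14 on average (interval −0.13 to 0.64). Without control 2 the difference was 0.15. Its level was close to the median of the table, and without detection calls how far it lies above background is unknown.

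Among the receptors, Scarb1 was higher in DIO on all 3 probe sets. Its brightest, 1455820_x_at, was at 10.43 in control 1, 9.95 in control 2, 10.76 in DIO 1 and 11.19 in DIO 2. The groups did not overlap, with 0.33 between DIO 1 and control 1, and the difference was 0.78 ± 0.25 (interval 0.09 to 1.47), a signal 1.72 times that of the controls. Of all genes, 3.30% had a difference at least as large. The probe set 1437378_x_at was at 9.74 and 9.35 in control cells and 10.15 and 10.74 in DIO, and 1416050_a_at at 9.91 and 9.21 in control cells and 9.97 and 10.41 in DIO. These differed by 0.90 ± 0.27 and 0.63 ± 0.30, in the same order of arrays. The suffix _x_at marks probes that may bind other transcripts, and 1416050_a_at, without that suffix, had the smallest of the 3 differences. The brightest probe set differed by 0.54 without control 2 and by 0.57 without DIO 2.

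Vldlr was read by 6 probe sets, and the DIO mean was lower on each. The brightest, 1434465_x_at, was at 9.20 and 8.86 in control cells and 8.75 and 8.68 in DIO cells, a difference of −0.31 ± 0.17 (interval −0.78 to 0.15). Its groups did not overlap, but DIO 1 lay only 0.10 below control 2, and the difference was −0.14 without control 1 and −0.48 without control 2. The probe set 1417900_a_at, next in brightness, was at 7.93 and 7.56 in control cells and 7.76 and 7.60 in DIO, so its groups overlapped and its difference was −0.06 ± 0.18. The other 4 probe sets lay between 3.99 and 6.09, with differences from −0.42 to −0.02. Of the 6, the brightest has the suffix _x_at, so its probes may bind other transcripts.

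**Figure D2:**
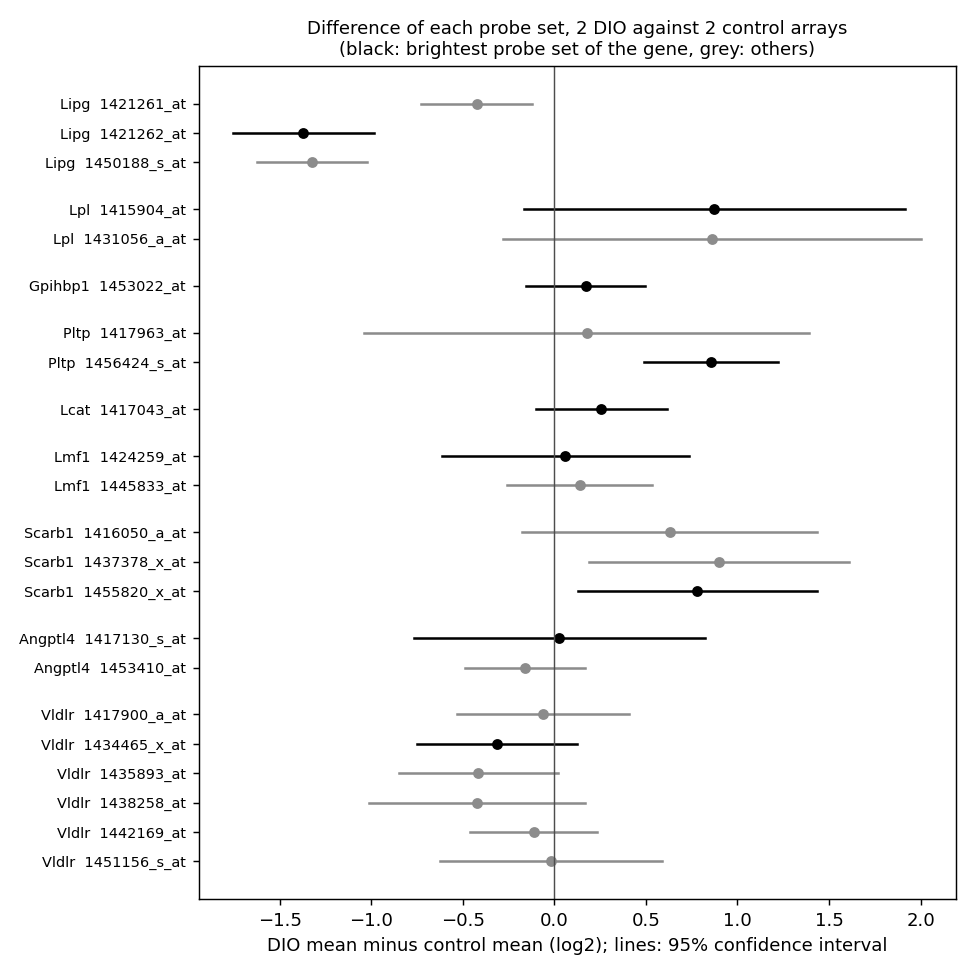
Difference of each of the 22 probe sets (DIO mean minus control mean, log2, horizontal axis), with its 95% confidence interval from limma over all probe sets, 2 arrays per group; black marks the brightest probe set of each gene and grey the others. The differences of the 3 Lipg probe sets lie below 0 and those of the 3 Scarb1 probe sets above it. Of the Pltp probe sets, 1456424_s_at lies farther above 0 than the other, whose interval is wide. The genes were chosen with this contrast known, so whether an interval reaches 0 is not read as a test.

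Over the 9 genes, 7 had a higher DIO mean and 2, Lipg and Vldlr, a lower one, where 53.2% of all genes had a higher and 46.7% a lower one. The groups did not overlap for 7 of them, 5 above and 2 below, where the same held for 38.4% of all genes (21.4% above and 17.0% below). On single probe sets, 15 of 22 did not overlap, against 41.3% of all probe sets. Since the genes were chosen with this contrast known, nothing is read from these counts. Without control 2 the groups did not overlap for 9 of 9, against 75.7% of all genes in that case. The median difference of the 9 genes was 0.17, beside 0.02 for all genes.

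The arrays had the same order for 3 of the 9 genes, Lpl, Pltp and Scarb1, with DIO 2 highest, then DIO 1, control 1 and control 2. For Pltp this holds on the brighter probe set. Of all genes, 6.93% had this order. Markers of trophoblast, the placental lineage, had the same order as a list, with means of 8.904 and 8.53 in control cells and 8.907 and 9.16 in DIO. DIO 1 and control 1 were thus nearly equal. In that list 8 of 10 measured markers had a higher DIO mean, as did 12 of 14 measured pluripotency markers and 53.2% of all genes. The 2 trophoblast markers with a lower one were Gata3 (−0.26) and Peg10 (−0.63), the latter without overlap. The order itself was found in 2 of 10. These were Tfap2c, at 10.11 and 10.10 in control cells and 10.53 and 11.09 in DIO, and Hand1, at 7.22 and 6.77 in control cells and 7.25 and 7.72 in DIO. Of the other marker lists, 4 held 1 marker each with this order. These were Robo4 of 20 endothelial (5%), Amn of 18 liver and yolk sac endoderm (5.56%) and Fcer1g of 13 macrophage markers (7.69%). The last was the smooth muscle gene Acta2, of 14 smooth muscle and fibroblast markers (7.14%). Acta2 was at 9.66 and 8.61 in control cells and 10.003 and 10.09 in DIO. Pluripotency markers averaged 9.95 and 9.13 in control cells and 10.42 and 9.29 in DIO, so number 1 was the higher array in both groups, as for Angptl4 and Lmf1. The part of these cell types in the members' values was not tested.

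Markers of other cells known for these genes were mixed in level: above the median of gene means were 2 of 8 adipocyte, 2 of 13 macrophage, 5 of 18 liver and yolk sac endoderm, and 8 of 14 smooth muscle and fibroblast markers. For the adipocyte, a main source of Lpl, Adipoq lay between 3.62 and 3.66 and Pparg between 9.86 and 10.31 on all arrays, while its 8 measured markers averaged 5.69 and 6.42 in control cells and 5.55 and 5.88 in DIO. For the macrophage, which makes Pltp and Lpl, the 13 markers averaged 5.38 and 5.39 in control cells and 5.41 and 5.46 in DIO. Ptprc, which defines blood cells, was between 3.84 and 4.11, although Csf1r lay between 11.03 and 11.66. For liver and yolk sac endoderm, sources of Lcat, the 18 markers averaged 5.28 and 6.63 in control cells and 5.601 and 6.04 in DIO, with Alb between 3.92 and 4.32 and Ttr at 5.12 and 9.55 in control cells and 7.38 and 8.82 in DIO. The 14 smooth muscle and fibroblast markers averaged 6.59 and 7.11 in control cells and 6.73 and 6.93 in DIO. The DIO mean was higher for 6 of them and lower for 8, with a median difference of −0.12. The groups did not overlap for 6 of 14, 5 above and 1 below, beside 38.4% of all genes. Single markers differed by more than the list mean. Tagln, at 8.94 and 8.26 in control cells and 9.64 and 9.44 in DIO, Acta2 and the mural gene Pdgfrb, at 7.07 and 7.57 in control cells and 7.83 and 8.53 in DIO, were higher in DIO without overlap, by 0.94, 0.91 and 0.86 (limma, adjusted p = 0.728 each), about as much as Lpl, Pltp and Scarb1. Without control 2 these were 0.60, 0.39 and 1.11. Postn was lower without overlap, with a difference of −0.59. Of these 4 list means, that of the macrophage alone did not overlap between the groups, with 5.39 and 5.41 as its nearest values. The part of these cells in the members' values was not tested.

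**Figure D3:**
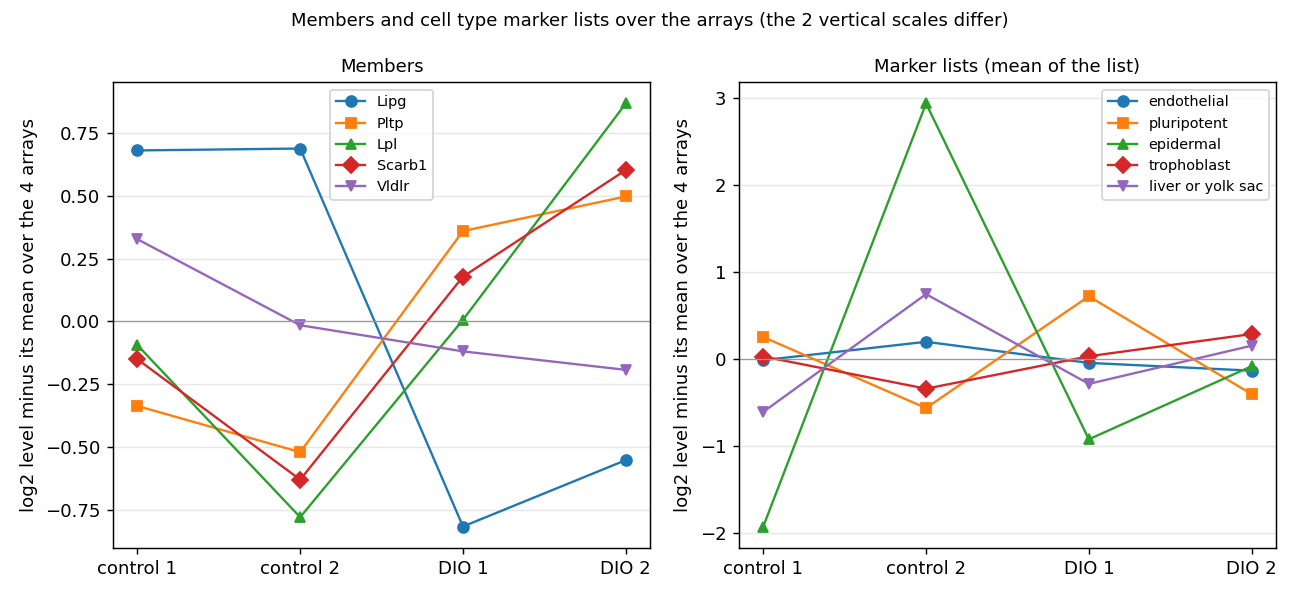
Log2 level on each array (horizontal axis) minus the mean over the 4 arrays (vertical axis), for 5 members by their brightest probe set (left) and for the means of 5 marker lists (right); the vertical scales differ. Lipg is level in the controls and lower in DIO, Lpl and Scarb1 are lowest in control 2 and highest in DIO 2, and the epidermal markers peak in control 2.

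The genes whose profile lay nearest to that of Lipg were sought among 8917 brighter genes, by the Euclidean distance between log2 values centred on each gene's mean over the 4 arrays. They were Slc41a2, a magnesium transporter (distance 0.23), Pdlim4 (0.26), the interferon-induced Trim30a (0.33), the secreted factor Metrnl (0.35) and Fam124a (0.37). Slc41a2 was at 8.51 and 8.51 in control cells and 7.21 and 7.54 in DIO, which tracks Lipg closely at a lower level. Trim30a had the widest step of these, at 8.09 and 8.43 in control cells and 6.48 and 6.99 in DIO. Nearest to Pltp were Zfp469 (0.15), Ddias (0.16), Crxos (0.16), the transcription factor Pou3f1 (0.17) and the cyclin Ccne1 (0.18). Ccne1 was at 9.87 and 9.45 in control cells and 10.41 and 10.49 in DIO. So few arrays give little to tell profiles apart, and genes were picked for their likeness, so these are descriptions.

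The wider pathway was read from 7 lists with 100 different genes, of which 86 were measured. In limma over all genes, 0 of the 86 passed the adjusted threshold of 0.05 (smallest adjusted p = 0.728), as did 0% of all genes. At an unadjusted p below 0.05 there were 6, or 6.98%, beside 6.58% of all genes. The groups did not overlap for 33 of the 86, 16 above and 17 below, which is 38.4%, the same share as of all genes. By list this held for 3 of 5 relatives of Lipg, 10 of 16 activators, inhibitors, processing enzymes and anchors, and 1 of 8 relatives of Pltp. It also held for 2 of 14 apolipoproteins and assembly genes, 9 of 19 receptors and adaptors, 7 of 13 efflux genes and 1 of 12 PPAR genes. The median difference over the 86 was −0.07. By these shares the wider pathway was near the background of the array as a whole.

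Among relatives of Lipg in the pancreatic lipase family, the DIO mean was higher for 4 of 5 measured genes, and the median was 0.17. Without control 2 it was 2 of 5 with a median of −0.19, and without DIO 1 it was 2 of 5 with −0.08. Liph, a phospholipase that makes lysophosphatidic acid, was the lower one, at 11.17 and 11.59 in control cells and 11.11 and 10.75 in DIO cells, a difference of −0.45 ± 0.23 (limma, adjusted p = 0.744). The second Liph probe set differed by −0.04. Pla1a, a phosphatidylserine phospholipase, differed by 0.29 ± 0.68 (adjusted p = 0.936), with its groups overlapping, and by −0.19 without control 2.

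Activators, inhibitors, processing enzymes and anchors of the lipases were split evenly, with 8 of 16 higher and 8 lower and a median of −0.001, and without control 2 with 11 higher and a median of 0.15. Apoc1, an apolipoprotein that restrains lipolysis, was at 11.19 and 10.76 in control cells and 11.71 and 11.30 in DIO cells, a difference of 0.53 ± 0.24 (limma, adjusted p = 0.732). Lmf2, a relative of Lmf1, differed by 0.43 ± 0.24 (adjusted p = 0.758). Sel1l, which helps Lpl leave the endoplasmic reticulum, differed by −0.39 ± 0.20 (adjusted p = 0.747), with 5 of 5 probe sets lower. Pcsk7, a proprotein convertase named after its values were seen, was the 1 gene of this list below an unadjusted 0.05, at −0.35 ± 0.13.

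In the lipid transfer family of Pltp, the DIO mean was higher for 5 of 8 measured genes and the median was 0.02. The groups did not overlap for 1 of 8, beside 38.4% of all genes. Without DIO 2 the DIO mean was higher for 2 of 8, with a median of −0.07. Lbp, which binds bacterial lipopolysaccharide, was at 6.30 and 7.26 in control cells and 6.60 and 6.18 in DIO cells, a difference of −0.39 ± 0.38 (limma, adjusted p = 0.836). Bpifb1 differed by 0.03 ± 0.16 (adjusted p = 0.970). Without control 2 both turned, to 0.09 and −0.06. The largest difference of this list was that of Bpifc, named after its values were seen. Bpifc was at 4.14 and 8.39 in control cells and 3.67 and 4.91 in DIO. Its difference of −1.97 ± 1.54 turned to 0.15 without control 2. None of the 8 had a mean above the median of gene means, unlike Pltp.

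Apolipoproteins and assembly genes were lower in 8 of 14, with a median of −0.06, and the groups did not overlap for 2 of them, beside 38.4% of all genes. Without control 2 the direction turned, with 11 of 14 higher and a median of 0.15, while without control 1 or without DIO 2 10 of 14 were lower. Clu, a secreted chaperone on HDL, was at 11.02 and 13.03 in control cells and 11.15 and 11.32 in DIO, and its difference of −0.79 ± 0.71 (limma, adjusted p = 0.822) turned to 0.21 without control 2. Apoe, the ligand of remnant receptors, was at 11.13 and 10.42 in control cells and 11.68 and 10.33 in DIO, with number 1 higher in both groups, and differed by 0.23 ± 0.54 (adjusted p = 0.938), or by −0.13 without control 2. Apom, an HDL protein that carries sphingosine 1-phosphate, named after its values were seen, was the 1 gene of this list below an unadjusted 0.05, at 0.58 ± 0.18 with 2 of 2 probe sets higher. It was dim, at 5.46 and 5.74 in control cells and 6.05 and 6.30 in DIO.

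The other lipoprotein receptors and their adaptors had a lower DIO mean in 13 of 19, with a median of −0.23 that was −0.06 without control 2 and −0.10 without DIO 2. Lrp8, the closest relative of Vldlr and with it a receptor for reelin, was at 10.55 and 10.13 in control cells and 9.81 and 9.77 in DIO. It differed by −0.55 ± 0.19 (limma, adjusted p = 0.728), with 3 of 3 probe sets lower. Dab1, the adaptor that binds both receptors inside the cell, differed by −0.48 ± 0.18 (adjusted p = 0.728), with 5 of 5 probe sets lower. Lrpap1, the chaperone of this receptor family, differed by −0.10 ± 0.15 (adjusted p = 0.892). Lrp2 at 0.85 ± 0.21 and Lrp6 at −0.38 ± 0.13, both named after their values were seen, were with Lrp8 the 3 genes of this list below an unadjusted 0.05. Lrp2 was dim, at 5.96 and 5.49 in control cells and 6.62 and 6.52 in DIO, and its 3 probe sets differed by 0.08 to 0.85. The 2 Lrp6 probe sets differed by −0.38 and −0.16.

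Genes of lipid efflux and lysosomal cholesterol release were lower in 7 of 13, with a median of −0.02, and in 6 of 13 without control 2, with a median of 0.04. Npc1, which exports cholesterol from the lysosome, was at 10.29 and 10.24 in control cells and 9.76 and 9.52 in DIO cells, a difference of −0.63 ± 0.15 (limma, adjusted p = 0.728), and was the 1 gene of this list below an unadjusted 0.05. Its partner Npc2 differed by −0.13 ± 0.15 (adjusted p = 0.859) and the transporter Abca7 by −0.41 ± 0.19 (adjusted p = 0.733). Abca1, which loads cholesterol onto nascent HDL, was at 9.71 and 10.61 in control cells and 10.57 and 10.31 in DIO, with the groups overlapping.

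PPAR receptors and their known targets, to which Angptl4 also belongs, had a lower DIO mean in 10 of 12, with a median of −0.10. The groups did not overlap for 1 of them, beside 38.4% of all genes. The count of lower genes was 7 of 12 under quantile normalization (median −0.03), without control 1 (−0.02) and without control 2 (−0.16). That gene was Plin2, a lipid droplet protein, at 12.31 and 12.26 in control cells and 12.09 and 12.22 in DIO cells, a difference of −0.13 ± 0.13 (limma, adjusted p = 0.836). Acadm, an enzyme of fatty acid oxidation, differed by −0.16 ± 0.26 (adjusted p = 0.896). Fabp4, a fatty acid binding protein named after its values were seen, was at 4.75 in control 1, 10.30 in control 2, 4.84 in DIO 1 and 6.54 in DIO 2, and so was high mainly in control 2, without which its difference of −1.84 turned to 0.93.

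**Figure D4:**
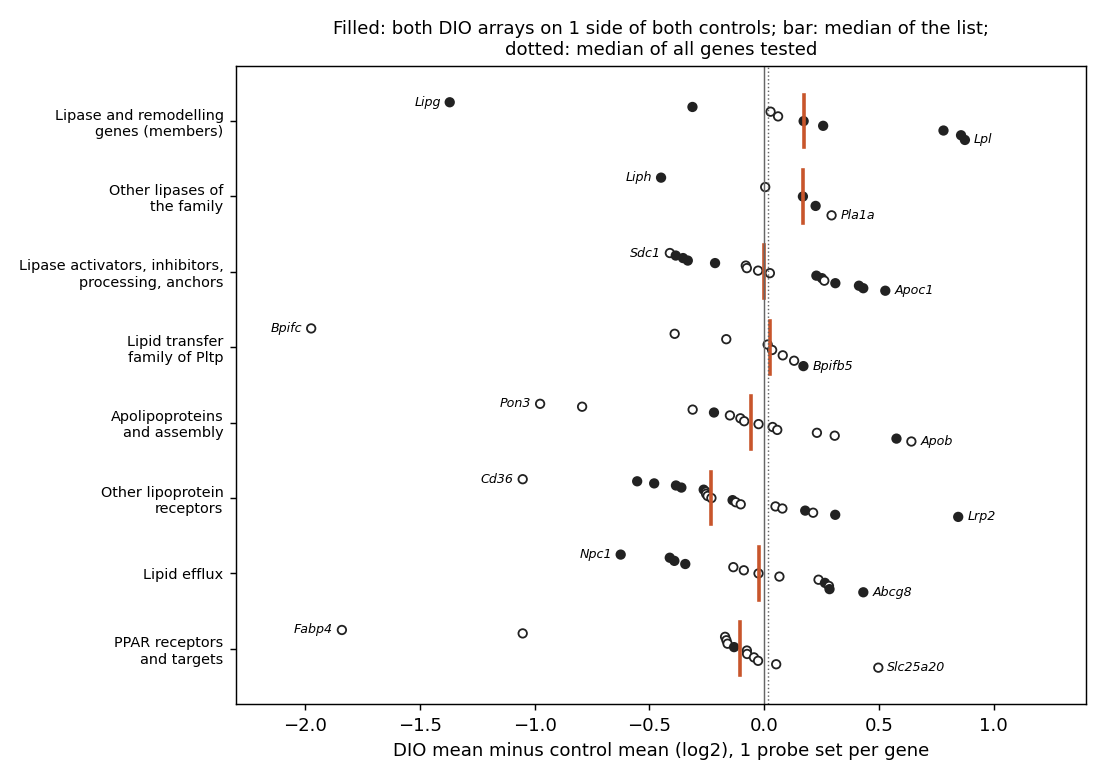
Difference of each gene (DIO mean minus control mean, log2, horizontal axis) by its brightest probe set, for the 9 members and the 7 wider lists; filled points are genes whose DIO arrays both lie on 1 side of both controls, the bar is the list's median and the dotted line the median of all genes, 0.02. Lipg lies apart from the other members at −1.37. The lowest points of some lists, such as Fabp4 and Cd36, are open, and control 2 was the highest array for these 2 genes.

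By limma, 0 of all genes passed the adjusted threshold, and 1198 were below an unadjusted 0.05, 594 higher and 604 lower in DIO. Quantile normalization of the arrays turned this split to 772 higher and 473 lower and changed the sign of no member. Without control 1, 483 genes were past the threshold. Of the genes named here, these included Clu and, named after their values were seen, Pon2, Pon3 and Cd36, the last a fatty acid and lipoprotein receptor. Over all 4 arrays they differed by −0.79, −0.31, −0.98 and −1.05, with 3 of 4 Pon2 probe sets lower. Without control 2 each turned, to 0.21, 0.66, 0.165 and 0.036. Without control 1 the differences were −1.80, −1.28, −2.12 and −2.14. For each of these 4, control 2 was then the only control, and over the other settings their adjusted p in limma ran from 0.387 to 0.9999. With 2 arrays per group, the smallest p of an exact 2-sided permutation test is 0.333.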

How the data were processed

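The authors deposited 1 table of log2 expression levels, with a row per probe set and a column for each of 4 arrays. The log2 scale was taken from their range, 2.59 to 14.56; the sources used here do not give its background correction, normalization or summary method, and there were no detection calls. Of 45101 probe sets, 64 manufacturer controls were left out of the tests. The platform annotation gave 1 symbol to 34945, several to 932 and none to 9160. Each of 18193 genes was represented by its brightest probe set over the 4 arrays. The groups were compared with limma 3.58.1 in R 4.3.3 (lmFit, eBayes, 2-sided, Benjamini-Hochberg over all genes), which was tested on simulated data. Named were all members, and of each wider list the genes past the threshold, the 2 with the largest difference among bright genes without overlap and the 2 brightest, and the 5 nearest profiles of Lipg and Pltp, clone names left out. The members and the lists were chosen with earlier results of these data known. Alternatives were averaged or single probe sets, quantile normalization, median centring, leaving out the dimmest 40% of genes, a trended robust eBayes, the mouse number as a block and leaving out each array.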

Additional observations from a re-analysis of the deposited data

How the results depend on the processing

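The directions of Lipg, Lpl, Gpihbp1, Pltp, Lcat, Scarb1 and Vldlr held in each alternative that was run for them, and Gpihbp1 and Lcat were not in the set without the dimmest genes. Averaging a gene's probe sets moved Lipg to −1.04 and Pltp to 0.52 and turned Angptl4 to −0.07. The count at an unadjusted p below 0.05 was 4184 with every probe set tested by itself, 607 without the dimmest 40% of genes, and between 171 and 3689 when 1 array was left out. The count past the adjusted threshold then ran from 0 to 483 over all genes and from 0 to 4 over the wider lists. The median of the lipase activators, inhibitors and anchors was 0.0409 with averaged probe sets, 0.0662 under quantile normalization, −0.0755 once the dimmest genes were dropped and 0.00985 to 0.147 with 1 array left out. The receptors' median was −0.0875 with averaged probe sets and −0.313 to −0.0612 with 1 array left out. The efflux median was −0.24 without the dimmest genes and −0.163 to 0.0409 with 1 array left out, and those of the lipase family, apolipoproteins, lipid transfer family and PPAR targets were −0.19 to 0.32, −0.11 to 0.15, −0.07 to 0.12 and −0.16 to −0.02. The cause of these shifts was not tested.

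The mouse numbers are only labels, since nothing says that mouse 1 of one group goes with mouse 1 of the other. With the mouse number as a block, 982 genes were below an unadjusted 0.05 and 0 passed the adjusted threshold, and Lipg stayed at −1.37 ± 0.15 and Pltp at 0.86 ± 0.16. Deviations of same-numbered arrays from their group means correlated at 0.33 across genes. With 2 arrays per group the deviations mirror each other, so both numbers give this same value. It therefore cannot show whether the arrays are paired. Where 1 array was left out, the lone array of a group is assumed to vary like the other group.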
